A study of Homo sapiens with 8 samples.

Results

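ZNF676 is a KRAB zinc finger protein, a class of DNA-binding repressors whose zinc fingers read the DNA sequence and whose KRAB domain recruits the co-repressor KAP1/TRIM28, and it is known for binding LTR12C, the repeat that flanks certain ERV9 endogenous retroviruses. Besides these repeats, its strongest ChIP-seq peaks in HEK293T cells lay at gene promoters without such a repeat, those of MAP4K3, of the neighbouring genes C4orf47 and UFSP2, and of HINT1. The peaks of these promoters are described here. They were taken as every peak within 1 kb of a transcription start site (TSS) of 1 of the 4 genes, and the genes had been chosen by the scores of their HEK293T peaks. The rule found 18 of 6108 peaks, 1 peak per promoter in each of 6 libraries, so that the 4 genes stood for 3 sites.

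The libraries came from a ChIP against the HA tag of overexpressed 3HA-tagged ZNF676, 3 from HEK293T, a human embryonic kidney line, and 3 from H1, a human embryonic stem cell line grown in mTeSR1 on matrigel. In HEK293T the protein was carried by a doxycycline-inducible pTRE vector under puromycin selection, and in H1 by a pRRL vector with blasticidin selection. PCR duplicates were removed in H1 only. Cell line, vector and duplicate removal were varied together and cannot be told apart, and both lines held tagged protein beyond what the cell makes itself. Each line also had 1 input library, used here only through the authors' peak calls. The HEK293T lists held 1257 to 1711 peaks and the H1 lists 495 to 637, the read depth behind each list is unknown, and the score was used only to rank peaks within a list. A percentile rank of 100 marks the strongest peak of a list. Promoter peaks "unlike LTR12C" are those within 1 kb of any TSS in which blastn found less than 100 bases aligned to an LTR12C element.

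The genes have separate roles. MAP4K3, also called GLK, is a serine/threonine kinase known for T cell receptor signalling and for the response of mTORC1 to amino acids. C4orf47, also named CFAP96, encodes a cilia and flagella associated protein, and UFSP2 is the protease that matures the ubiquitin-like modifier UFM1 and removes it from its substrates. HINT1 is a histidine triad protein that hydrolyses purine phosphoramidates, and its loss causes a peripheral neuropathy.

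All 18 peaks covered an annotated start site, and the positions below are on GRCh37 (hg19), counted from 1. At MAP4K3 (ENSG00000011566, minus strand, chr2:39476407-39664442) the bases found in all 6 peaks, called the core, were chr2:39664279-39664565. Of this 287 bp core, 57.1% was annotated as untranslated exon of MAP4K3, and 69.0% was exon of the divergent non-coding gene MAP4K3-DT. At the second site the 393 bp core, chr4:186347281-186347673, held the starts of all 4 annotated transcripts of C4orf47 (ENSG00000205129, plus strand) and of none of UFSP2 (ENSG00000109775, minus strand). In this core 173 bases were untranslated exon of C4orf47. At HINT1 (ENSG00000169567, minus strand) the 213 bp core, chr5:130500985-130501197, held the starts of 6 annotated transcripts, and 27.2% of it was untranslated exon. The peaks stood alone, since the nearest other peak on the chromosome lay between 617337 and 4309205 bp away.

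The longest strings of bases that all 3 cores share, on either strand, were 8 bases long, and there were 2 of them. The first, CGCAGCCC, also occurs in the LTR12C element used for the alignment, 50 bases from its start. The sites below show it in capitals with 11 bases on each side, because they allow the promoters to be compared with the repeat. All are written 5′ to 3′ on the strand that reads the string, which is the plus strand at chr2:39664376-39664405, chr4:186347407-186347436 and chr6:52651148-52651177 and the minus strand at chr5:130501039-130501068.
MAP4K3: aggagaaccctCGCAGCCCctcgctcgggg
C4orf47/UFSP2: cagaggcgctgCGCAGCCCaggcgtgtcgc
HINT1: ctggccgcactCGCAGCCCaggtcgccagt
LTR12C element: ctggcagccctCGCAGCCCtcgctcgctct
The middle of the string lay 34.1 bp from the mean peak centre at MAP4K3, 34.8 bp at C4orf47/UFSP2 and 22.1 bp at HINT1. The strings were found in the 3 cores themselves, so their presence there is no result, and what follows counts them elsewhere.

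In windows of 300 bp around the peak centre, CGCAGCCC was held by 149 of 540 LTR12C-like HEK293T regions (27.6%, exact 95% binomial CI 23.9 to 31.6), regions found in at least 2 of the 3 libraries. Among LTR12C-like H1 regions it was held by 124 of 468 (26.5%, CI 22.6 to 30.7). Among the other 568 HEK293T promoter regions unlike LTR12C it was held by 39 (6.87%, CI 4.93 to 9.27), and around the TSS of protein-coding genes by 1182 of 20163 (5.86%, CI 5.54 to 6.20). The higher share on the repeats follows from their definition, since LTR12C-like regions are those that align to the element that holds the string. With windows of 200 and 500 bp, added after the data were seen, the shares were 20.6% and 45.4% for the LTR12C-like HEK293T regions, 5.46% and 11.1% for the other promoter regions and 3.93% and 9.22% for the TSS, so the levels depend on the window. It lay within 50 bp of the centre in 65.1% of the LTR12C-like windows that held it, in 48.7% of the other promoter windows and in 34.8% of the TSS windows. None of the 8 other promoter regions unlike LTR12C with peaks in all 3 H1 lists held it. The second string, CTGCGCAG, is absent from the element and was found in 0.556% of the LTR12C-like HEK293T windows, 3.70% of the other promoter windows and 2.14% of the TSS windows.

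**Figure D1:**
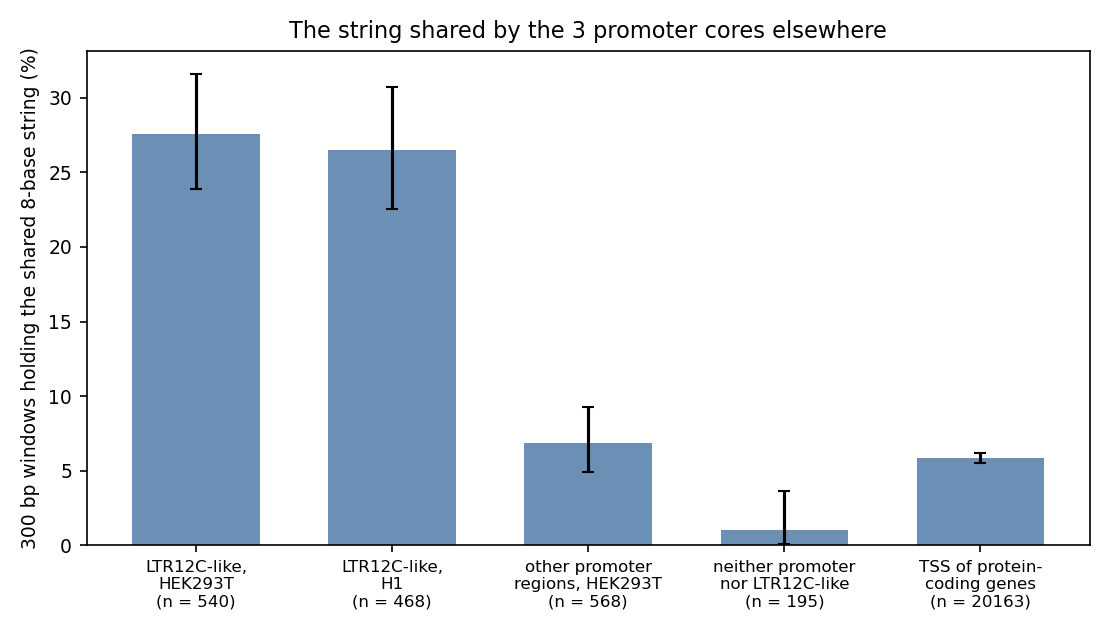
Share of 300 bp windows (y axis, %) that hold the 8-base string shared by the 3 promoter cores, in 5 sets of regions (x axis, with the number of windows), with exact 95% binomial intervals. The LTR12C-like sets stand at 27.6% and 26.5%, and the other sets at 6.87% or less.

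The bases beside the string were then set against the element. The HINT1 site shared 12 of its 22 flanking bases, against a median of 7 over the 1180 other TSS windows that hold the string, of which 17 (1.44%) reached 12. The MAP4K3 site shared 6 of 22 as printed, but with 1 inserted base directly after the string it shared 14, since the next 7 bases were then the same as in the element. With 1 base removed at that place the HINT1 site also shared 14. Under the same allowance 4 of the 1180 TSS windows (0.339%), 1 of 39 other promoter windows and 107 of 149 LTR12C-like windows (71.8%) shared 14 or more, the last again a set defined by its alignment to the element. The C4orf47/UFSP2 site shared 6, below the median of 8 in the TSS windows. The allowance was chosen after the sites were seen, so these counts are a description of the letters and not of a binding site. The longest run of bases that a core shared with the first 200 bases of the element was 12 at MAP4K3, a length reached by 31 of the other 568 promoter regions (5.46%), 10 at HINT1 and 9 at C4orf47/UFSP2, against a median of 9.

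The ranks show how far each promoter kept its place in H1. They are a description, because the HEK293T scores selected the members. At MAP4K3 the HEK293T peaks ranked 2, 1 and 1, with percentile ranks of 99.9, 100 and 100 in replicates 1 to 3. In H1 the MAP4K3 peak ranked 8 of 637, 4 of 576 and 4 of 495, which are percentile ranks of 98.9, 99.5 and 99.4. This promoter was thus near the top of every list, and all 7, 3 and 3 H1 peaks ranked above it were LTR12C-like.

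At C4orf47/UFSP2 the HEK293T peaks ranked 1, 2 and 2. The H1 peaks ranked 248, 51 and 29, with percentile ranks of 61.2, 91.3 and 94.3, so that H1 replicate 1 stood far below the other two. Of the 247, 50 and 28 H1 peaks ranked above it, 233, 48 and 26 were LTR12C-like. Its mean percentile rank was 17.7 points lower in H1, 7.12 points lower without H1 replicate 1 and 8.92 points lower when ranked among promoter peaks unlike LTR12C only. The last value depends on list length, since H1 lists held only 18, 31 and 21 such peaks against 710, 730 and 542. By place the peak went from 1, 2 and 2 in HEK293T to 3 in each H1 list.

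At HINT1 the HEK293T peaks ranked 3, 3 and 4. The H1 peaks ranked 524, 255 and 117, with percentile ranks of 17.9, 55.9 and 76.6, again lowest in replicate 1. The mean was 99.8 ± 0.0647 in HEK293T and 50.1 ± 29.8 in H1 (SD, n = 3 libraries), a difference of 49.7 points that was 26.7 points among promoter peaks unlike LTR12C only. The 26.7 points likewise depend on the unlike lengths of these lists. No LTR12C-like peak ranked above a member in HEK293T, whereas 452, 240 and 109 did above HINT1 in the H1 lists. Each of the 3 promoters had lower percentile ranks in every H1 list than in every HEK293T list. This was also true of 248 of the 394 regions that had exactly 1 peak in each of the 6 lists (62.9%), so a lower rank in H1 was common. Among the 11 of these regions that were promoters unlike LTR12C, members included, it was true of 10.

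Among only the promoter peaks unlike LTR12C, which numbered 710, 730 and 542 in HEK293T and 18, 31 and 21 in H1, MAP4K3 was first in every H1 list and C4orf47/UFSP2 held place 3 in each of them. HINT1 was in place 9, 5 and 6. The place between MAP4K3 and C4orf47/UFSP2 in H1 was held on average by CFD, the gene of complement factor D, with percentile ranks of 75.0, 93.9 and 98.0, which overlapped those of C4orf47/UFSP2. Just outside the 3 promoters in HEK293T lay LRRC74B, a gene of leucine-rich repeats, with percentile ranks of 99.77, 99.79 and 99.84 against 99.88, 99.86 and 99.76 at HINT1, so the order of these neighbours turned in replicate 3. The order of MAP4K3 and C4orf47/UFSP2 turned in replicate 1. In H1 the percentile ranks of LRRC74B were 49.5, 55.7 and 78.0, against 17.9, 55.9 and 76.6 at HINT1.

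**Figure D2:**
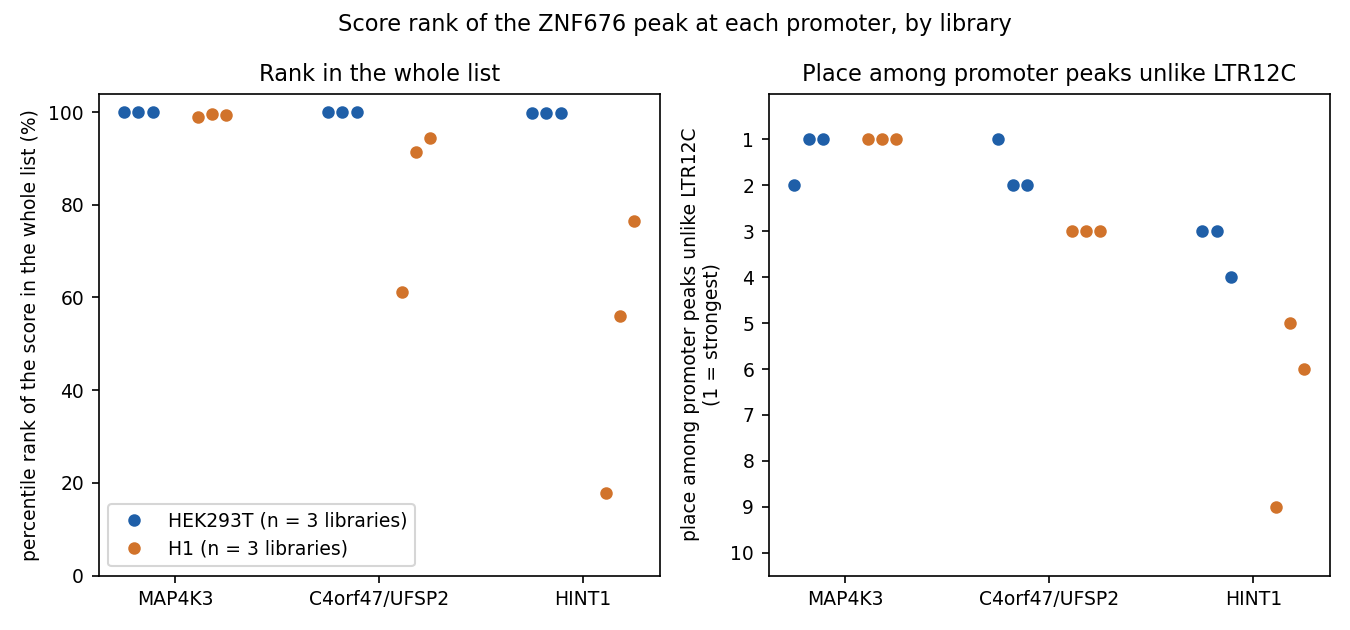
Percentile rank of the peak score in its whole list (left, y axis in %) and place among the promoter peaks unlike LTR12C of the same list (right, 1 is the strongest), for 3 HEK293T and 3 H1 libraries at each promoter (points, replicates 1 to 3 from left to right). HINT1 spreads from 17.9 to 76.6 in H1, while MAP4K3 stays at 98.9 or above and is first among the promoter peaks in each H1 list.

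A peak in all 3 H1 lists was itself uncommon for such promoters. Of 571 HEK293T promoter regions unlike LTR12C, 11 (1.93%, exact 95% binomial CI 0.966 to 3.42) had a peak in all 3 H1 lists and 548 in none, whereas 3 of the 3 member sites had one in all 3. All 11 were among the 345 of these regions that had a peak in all 3 HEK293T lists (3.19%). Ordered by mean percentile rank in HEK293T, the measure that chose the members, the 10 strongest of the 345 included 6 of the 11 and the 50 strongest 9. Without the members these counts were 3 of 7 and 6 of 47, against 8 of 342 (2.34%). The 10 strongest also included promoters at which no H1 list had a peak, C6orf120/WDR27 and TUBA3FP/P2RX6, and promoters whose H1 peaks ranked low, such as CCND1, the gene of cyclin D1, with percentile ranks of 0.785, 18.8 and 5.66. For comparison, 387 of 540 LTR12C-like HEK293T regions (71.7%) had a peak in all 3 H1 lists. An interval of this kind covers counting error only.

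**Figure D3:**
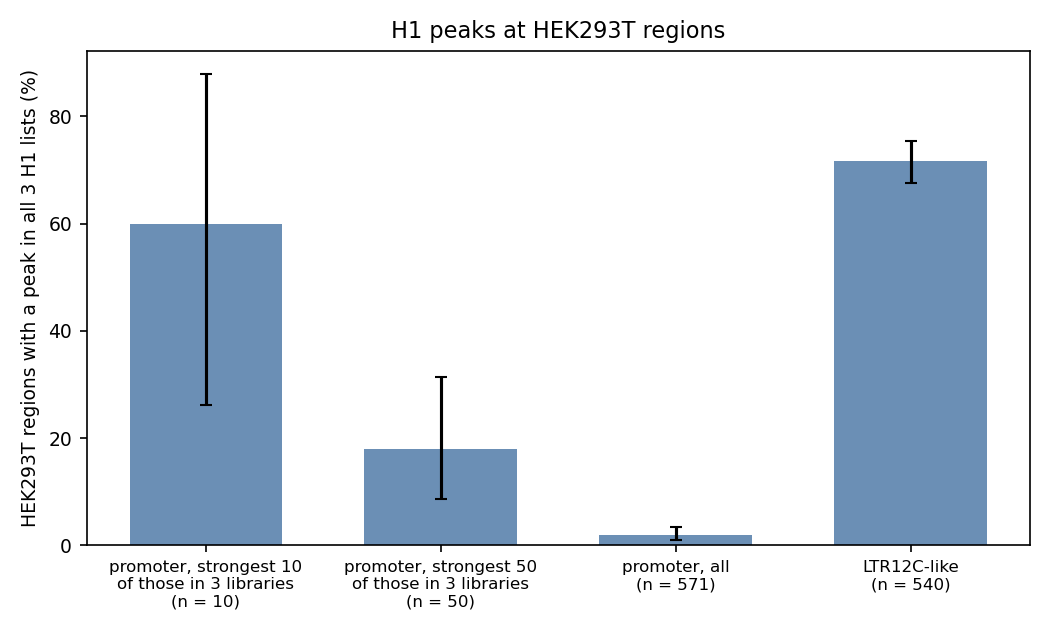
Share of HEK293T regions with a peak in all 3 H1 lists (y axis, %), for promoter regions unlike LTR12C (the strongest 10 and strongest 50 of those found in all 3 HEK293T lists, members included, and all those found in at least 2) and for LTR12C-like regions (x axis, with the number of regions), with exact 95% binomial intervals. The share is 60% of the strongest 10, 18% of the strongest 50, 1.93% of all such promoter regions and 71.7% of LTR12C-like regions.

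Width did not enter the rule, and position entered it only through the limit of 1 kb to a TSS. The HEK293T scores chose the members, and how far width follows the score was not tested. Both measures were tested over libraries by exact permutation (two-sided), for which 3 libraries against 3 give no p below 0.1. The MAP4K3 peaks were 317, 300 and 287 bp wide in HEK293T and 325, 304 and 300 bp in H1. The groups overlapped, with means of 301 ± 15.04 bp and 310 ± 13.4 bp (SD, n = 3; exact permutation p = 0.6). The H1 lists held wider peaks as a whole, with list medians of 377 to 398 bp against 276 to 346 bp. Relative to the median of its list the MAP4K3 peak was 1.01 ± 0.0882 in HEK293T and 0.804 ± 0.0546 in H1 (exact permutation p = 0.1), so the direction depends on that scaling.

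The C4orf47/UFSP2 peaks were 644, 575 and 547 bp wide in HEK293T and 418, 393 and 516 bp in H1. Every H1 peak was narrower than every HEK293T peak, and the means of 589 ± 49.9 bp and 442 ± 65.0 bp differed 1.33-fold (exact permutation p = 0.1, adjusted over the 3 sites 0.15). HINT1 showed the same order with a larger gap: its peaks were 699, 522 and 504 bp wide in HEK293T and 213, 383 and 396 bp in H1. Here the means were 575 ± 108 bp and 331 ± 102 bp, a ratio of 1.74 (exact permutation p = 0.1, adjusted 0.15), and without H1 replicate 1 the difference of 244 bp became 186 bp. Neither difference reached an adjusted p below 0.05, which this design cannot give.

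Widths that did not overlap and were narrower in H1 were found at 28 of the 394 regions with 1 peak in every list (7.11%), and at 2 of the 3 member sites. Among the 11 of these regions that were promoters unlike LTR12C, members included, 7 were narrower in H1 and none was wider, and their median ratio of HEK293T to H1 width was 1.496. Among the 372 LTR12C-like regions 18 were narrower and 40 wider, with a median ratio of 0.952. Narrower H1 peaks at C4orf47/UFSP2 and HINT1 thus had counterparts at other promoters of their class, and at 2 of the 394 regions the ratio was larger than at HINT1. The H1 peaks of both sites also ranked lower in their lists, and the part of peak strength in the width was not tested.

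**Figure D4:**
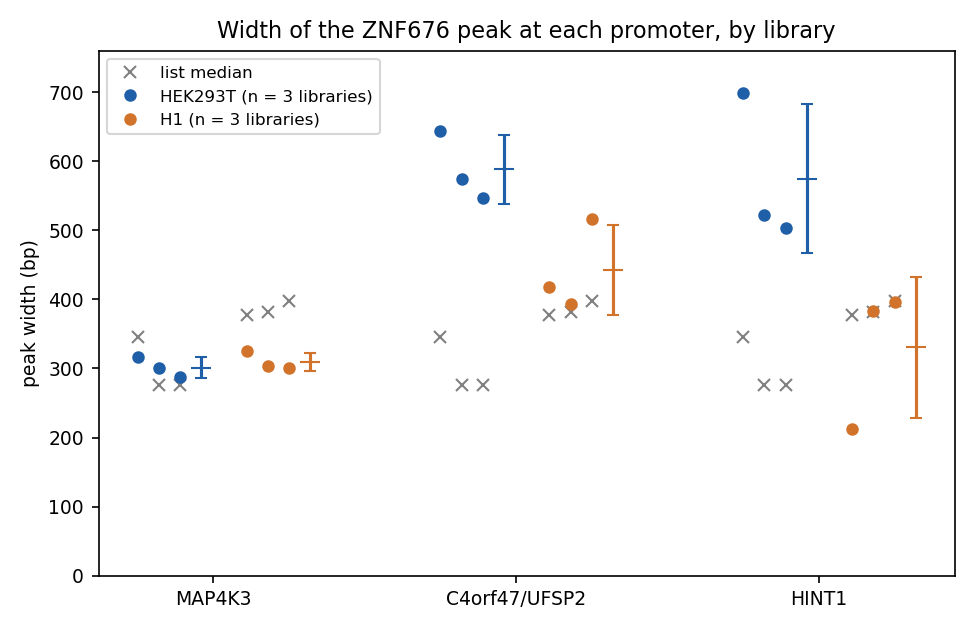
Width of the peak (y axis, bp) at each promoter in 3 HEK293T and 3 H1 libraries (points, replicates 1 to 3 from left to right), with mean and SD (dash and bar) and the median width of each library's whole list (grey crosses). The lines overlap at MAP4K3 and do not overlap at C4orf47/UFSP2 and HINT1.

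The position of the peak, taken as its midpoint because the lists hold no summit, was most stable at MAP4K3. The 6 midpoints there lay within 9.5 bp, the smallest range among the 394 regions, whose median range was 61.3 bp. The mean of these midpoints lay 1.42 bp from the nearest annotated TSS of MAP4K3 and 17.4 bp from the outermost. The mean midpoints of the lines differed by 2.17 bp (exact permutation p = 0.6). At C4orf47/UFSP2 the midpoints spread over 43.5 bp and at HINT1 over 90 bp. Their mean lay 1.25 bp from the nearest TSS of C4orf47 at the former and 33.6 bp from that of HINT1 at the latter.

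At both of these sites the H1 midpoints lay to the right of all HEK293T midpoints on the chromosome, by 22.2 bp on average at C4orf47/UFSP2 and 46.5 bp at HINT1 (exact permutation p = 0.1 each, adjusted 0.15). The H1 peaks were shorter at both ends, and by unequal lengths. At C4orf47/UFSP2 the left edge lay 95.3 bp further right in H1 on average and the right edge 51 bp further left. At HINT1 the same edges moved by 169 bp and 75.7 bp. Midpoints that did not overlap between the lines were found at 48 of the 394 regions (12.2%) and at 2 of the 3 member sites. Among the 11 of these regions that were promoters unlike LTR12C, members included, they were found at 3. As C4orf47 is read to the right and HINT1 to the left, the H1 midpoints lay further into C4orf47 and further upstream of HINT1.

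For UFSP2 the narrower H1 peaks also ended further from the gene. Its outermost TSS, chr4:186347133, was covered by the peak of HEK293T replicate 1 and lay 26 and 50 bp from the peaks of replicates 2 and 3. In H1 it lay 124, 148 and 69 bp from the peak, so that no H1 peak reached it. All 6 peaks covered start sites of C4orf47.

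**Figure D5:**
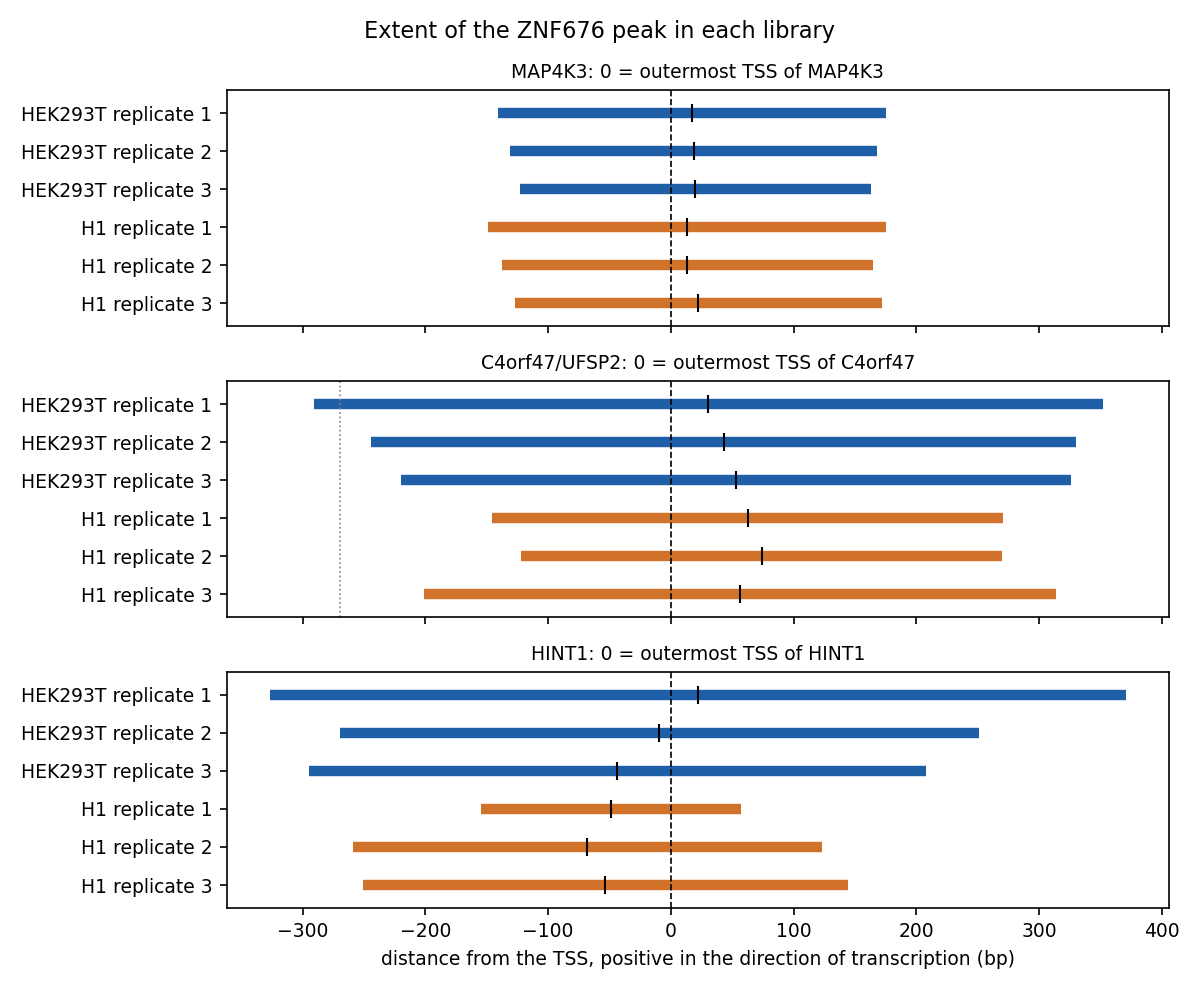
Extent of the peak in each library (bars) and its midpoint (black tick) as distance in bp from the outermost TSS within the peak (dashed line; that of C4orf47 in the middle panel, with the TSS of UFSP2 dotted), positive in the direction of transcription. The 6 MAP4K3 bars have nearly the same ends, and the H1 bars at the other sites lie inside the merged HEK293T extent.

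The sequences of the promoters outside the untranslated exons of the 4 genes are printed for the letters they hold (the MAP4K3 stretch is exon of the non-coding MAP4K3-DT), on the plus strand, from chr2:39664443-39664591, chr4:186347134-186347402 (the whole interval between UFSP2 and C4orf47) and chr5:130501043-130501342. Capitals mark the matches found: a GC box (GGGCGG, here read on the minus strand) followed by CTGCGCAG at MAP4K3, a cyclic AMP response element (TGACGTCA) and a GC box at C4orf47/UFSP2, and the minus-strand match of CGCAGCCC followed by a plus-strand match of the TATA box string (TATAAA) at HINT1. HINT1 is read from the minus strand, so this TATAAA faces away from the gene. It starts at chr5:130501188, upstream of the outermost TSS of HINT1 at the site, 130501042.
MAP4K3: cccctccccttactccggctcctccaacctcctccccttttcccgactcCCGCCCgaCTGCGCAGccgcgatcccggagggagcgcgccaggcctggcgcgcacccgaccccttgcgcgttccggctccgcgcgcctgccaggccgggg
C4orf47/UFSP2: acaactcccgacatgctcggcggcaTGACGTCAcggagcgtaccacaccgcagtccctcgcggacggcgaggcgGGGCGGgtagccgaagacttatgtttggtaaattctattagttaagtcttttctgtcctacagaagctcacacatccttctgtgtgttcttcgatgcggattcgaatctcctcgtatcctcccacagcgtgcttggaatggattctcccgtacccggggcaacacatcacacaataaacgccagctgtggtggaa
HINT1: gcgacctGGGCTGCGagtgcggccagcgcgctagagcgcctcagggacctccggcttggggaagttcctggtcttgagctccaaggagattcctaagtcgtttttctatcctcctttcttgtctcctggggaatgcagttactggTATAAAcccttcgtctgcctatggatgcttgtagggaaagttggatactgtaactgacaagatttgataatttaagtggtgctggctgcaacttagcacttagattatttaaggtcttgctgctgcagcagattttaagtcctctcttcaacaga
Both strands were searched for 6 listed motifs. Matches at the member sites were taken over the merged extent of the peaks, 325, 644 and 699 bp. The shares that follow are for 300 bp windows, so they are no like-for-like background for the member matches. In 300 bp windows, TATAAA and TGACGTCA were found in none of the 11 promoter regions with peaks in all 3 H1 lists, members included. The GC box was found in 54.0% of TSS windows and 61.4% of the other promoter regions, the TATA box in 9.21% and 3.52%, and the cyclic AMP response element in 2.17% and 1.76%. The CCAAT box, found in 33.7% and 25.7%, matched once at MAP4K3 and at no other member site. CCGGAAG (ETS factors) and GCGCATGC (part of the NRF1 motif) matched at none of the 3 sites. The cyclic AMP response element and both GC boxes of C4orf47/UFSP2 lay outside the core, on the UFSP2 side, where the H1 peaks were trimmed most. The lines did not divide cleanly there. The peak of HEK293T replicate 3 did not reach the response element, and only that of HEK293T replicate 1 reached the GC box nearer UFSP2. The peak of H1 replicate 3 still covered the other GC box.

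Of 72 relatives of the 4 genes in 5 lists, 2 (2.78%) had a TSS peak in any HEK293T list, against 1098 of all 20176 protein-coding genes (5.44%), and 1 (1.39%) in at least 2, against 638 (3.16%). None had one in any H1 list, against 49 of all genes (0.243%), and counts this small near the background say nothing particular of the relatives. Of the other 4 MAP4K kinases none had a peak within 1 kb of a TSS, and the nearest peak lay 49.8 kb from MAP4K5, 404.5 kb from MAP4K2, 793 kb from MAP4K1 and 1134 kb from MAP4K4. None of 18 genes that carry the amino acid signal to mTORC1 had one, although a peak of H1 replicate 1 lay 1.05 kb from a TSS of RPTOR, the mTORC1 scaffold. Of 8 other genes of UFM1 conjugation, ODR4, whose protein holds UFSP2 at the endoplasmic reticulum, had a peak in HEK293T replicates 1 and 2, with percentile ranks of 11.2 and 26.0. Of 6 other histidine triad genes, HINT3 had a peak in HEK293T replicate 2 only, with a percentile rank of 15.7. None of 36 other genes of ciliary and microtubule inner proteins had one, the nearest being DNAH11, an axonemal dynein, at 5.76 kb. All 6 lists had a peak 5762 to 5805 bp from a TSS of DNAH11. The paper reports a strong ZNF676 peak in the regulatory regions of both DNAH11 and C4orf47, with an LTR12C readily found only at DNAH11. It also reports higher transcript levels of both genes after ZNF676 knockdown in naive embryonic stem cells. At the C4orf47 TSS, its ZNF676 site overlaps a KAP1 site.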

How the data were processed

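ChIP-seq peak lists of 6 ZNF676 libraries were used. Per the study's methods, read pairs were aligned by the authors to hg19 (Bowtie2), who removed poorly mapping, blacklisted and high-input reads, removed PCR duplicates (Picard) in H1 only and used MACS2 as peak caller. Each deposited peak name shows 1 library set against the input of that cell line. The deposited score is a whole number of unstated scale. It was ranked within each list and never compared between lists. Read depth per library is not in the lists. Replicates were biological triplicates per the study.

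The members and gene lists were chosen with earlier results of these data known. Named genes were the 4 members and genes sharing their peaks, the 4 genes of each list nearest to a peak and any list gene with a TSS peak, and the 7 next strongest promoter regions in HEK293T. RAB19/SLC37A3 was chosen after its values were seen.

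Consensus regions were merged peaks (overlap of at least 1 bp) found in at least 2 of 3 libraries. TSS came from GENCODE release 44 lifted to GRCh37. LTR12C-like regions had at least 100 bases aligned by blastn 2.17.0 (E-value at most 1e-10) to the element cloned by the study, located by its primers. Sequences are from GRCh37, read with pysam 0.24.0. Tests were exact permutation tests over libraries (numpy 2.4.6, Python 3.11.15), Benjamini-Hochberg adjusted over 3 sites, and intervals exact binomial (scipy 1.17.1). Overlap, motif and test code was tested on simulated data.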

Additional observations from a re-analysis of the deposited data

How the results depend on the processing

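Of the 93 values recomputed under another setting, 5 turned direction. No width or position difference could pass 0.05 under any setting, so these runs speak only of direction. Dividing by the list median turned the MAP4K3 width difference from HEK293T below H1 by 8.33 bp to a ratio higher by 0.210 in HEK293T. Position by the left edge turned the MAP4K3 difference (2 bp), and by the right edge those of C4orf47/UFSP2 (51 bp) and HINT1 (75.7 bp), where the H1 peaks were shorter at both ends. Ranked among promoter peaks unlike LTR12C, the MAP4K3 difference in percentile rank went from 0.722 to -0.0469, since it was second in HEK293T replicate 1 and first in each H1 list. Equal list lengths (the strongest 495) could not be applied to HINT1, whose peak in H1 replicate 1 ranks 524. Leaving out 1 library at a time turned no direction, with width differences (HEK293T minus H1) from -16.2 to -0.667 bp at MAP4K3, 119 to 183 bp at C4orf47/UFSP2 and 182 to 279.8 bp at HINT1, and with 1.93% to 2.85% of HEK293T promoter regions supported in every H1 list used. Windows of 200 and 500 bp, chosen after seeing the data, moved the LTR12C-like share with the shared string to 20.6% and 45.4%. Ranked among promoter peaks unlike LTR12C, the difference in percentile rank was 8.92 points at C4orf47/UFSP2 and 26.7 at HINT1. Both values depend on list length, as H1 lists held 18 to 31 such peaks and HEK293T lists 542 to 730. Same-numbered libraries of the 2 lines showed no clear pairing. Their width deviations over 394 regions correlated weakly, at 0.185, 0.0427 and 0.0775, and those of unlike number at -0.159 to 0.116. HEK293T replicates 1 and 3 correlated best with their own number, and HEK293T replicate 2 with H1 replicate 3. A replicate block left the differences as they were (146 bp at C4orf47/UFSP2, exact sign-flip p = 0.25, the smallest it can give).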

Other observations

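In windows of 300 bp the GC content was 73.3% at MAP4K3, 61.7% at C4orf47/UFSP2 and 61.3% at HINT1, against medians of 65% over the 571 HEK293T promoter regions unlike LTR12C, 62.7% around protein-coding TSS and 58.7% over LTR12C-like regions. The ratio of observed to expected CpG was 1.13, 0.843 and 0.784, in the same order, against medians of 0.815, 0.732 and 0.399. MAP4K3 lay above 95.6% of the promoter regions in GC content and above 97.9% in CpG ratio, while the other members lay near or below the middle.

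RAB19/SLC37A3 was a promoter unlike LTR12C with peaks in all 3 H1 lists, at percentile ranks of 36.3, 78.3 and 89.1, between C4orf47/UFSP2 and HINT1 in mean rank, and no HEK293T list had a peak there.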
